A study of Homo sapiens with 12 samples.

Results

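The genes described here are 42 named genes of the ATF4 integrated stress response, taken by symbol. The list was chosen with earlier results of these data known, so its shares are not those of a list drawn blind to them. A gene was read from the probe set whose annotation gave exactly 1 symbol, and from the probe set with the highest mean where there were several. By this rule 41 of the 42 genes were measured, among 18417 genes in all. GPT2, which encodes an alanine aminotransferase, had no probe set of this kind and was not analysed here. Total RNA of SZ95 sebocytes, a human sebaceous gland line that was immortalised, was hybridised to 12 Affymetrix arrays that read whole transcripts. The 4 groups held 3 replicate arrays each (n = 3 throughout). They were cells with OLR1 siRNA and UV-PAPC, untreated cells with OLR1 siRNA, cells with scramble siRNA and UV-PAPC, and untreated cells with scramble siRNA. UV-PAPC is an arachidonic acid phosphatidylcholine oxidised with ultraviolet light. It was given at 25 µg/ml, and the labels put this treatment 24 h after the siRNA. All groups were grown in Sebomed medium and received an siRNA by lipofection, untreated cells included. OLR1 encodes LOX-1, a scavenger receptor for oxidised low-density lipoprotein. No untransfected cells, vehicle or unoxidised PAPC are among the groups, so oxidation, lipid and vehicle cannot be told apart in a difference from untreated cells. The sources used here do not give the duration of exposure to UV-PAPC. The labels do not state that replicates came from separate cultures, and p-values then cover no more than the spread between these arrays, which can be technical. In bulk RNA, fewer cells of a kind and less RNA per cell cannot be told apart.

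The integrated stress response is a pathway by which cells slow protein synthesis under stress. Kinases that sense unfolded protein, amino acid shortage, double-stranded RNA or haem shortage phosphorylate the translation factor eIF2alpha, which lowers general translation and favours translation of the ATF4 mRNA. ATF4, a bZIP transcription factor, then pairs with C/EBP family proteins at composite C/EBP-ATF response elements and raises genes for amino acid uptake, amino acid synthesis, tRNA charging, redox balance and, with the factor CHOP, cell death. Since ATF4 is controlled largely at translation, the level of its mRNA is only a partial view of its activity, and protein and eIF2alpha phosphorylation were not measured here.

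The composite element has the core TGATGNAA, where N is any base, and it was searched on both strands of RefSeq promoter windows (GRCh38.p14) that run from 250 bases before to 50 bases after each transcript start. Of the 41 measured genes, 35 had an entry by symbol, with 1 to 3 start sites each. The core was present in 15 of these 35 (42.9%), against 4.46% of 27305 genes and 3.62% of 35116 windows in the table. The sequences below are shown because they set genes with and without a change in these cells side by side: CHAC1 and PPP1R15A rose with UV-PAPC under scramble siRNA, while ASNS, AARS1, IARS1 and ATF3 passed no test. Each is genomic sequence upstream of the start site on the strand of the gene, 5′ to 3′, outside that transcript. Capitals mark the core TGATGNAA or its reverse complement TTNCATCA, and in PPP1R15A the cAMP response element TGACGTCA.
CHAC1, chr15:40953236-40953295, plus strand: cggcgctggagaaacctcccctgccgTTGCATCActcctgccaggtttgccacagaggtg
PPP1R15A, chr19:48872337-48872396, plus strand: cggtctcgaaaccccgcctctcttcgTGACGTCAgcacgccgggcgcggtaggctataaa
ASNS, chr7:97872443-97872502, minus strand: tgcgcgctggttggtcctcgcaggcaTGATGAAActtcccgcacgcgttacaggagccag
AARS1, chr16:70289660-70289719, minus strand: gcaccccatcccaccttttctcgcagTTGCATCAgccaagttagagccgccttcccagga
IARS1, chr9:92293698-92293736, minus strand: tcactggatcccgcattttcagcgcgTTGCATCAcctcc
ATF3, chr1:212565190-212565249, plus strand: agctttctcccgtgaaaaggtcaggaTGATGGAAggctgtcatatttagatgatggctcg
The core was present in 2 of the 8 genes that rose with UV-PAPC (CHAC1 and SLC3A2, where it lay downstream of the start) and in 13 of the other 27. Of the 9 tRNA synthetase genes with an entry, 6 held it. TGACGTCA, which is its own reverse complement, was found in 1 of the 35 genes, PPP1R15A, against 2.25% of all genes. A match is a description of the letters and not a bound site, and sites outside these windows were not searched.

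The median log2 signal of an array was 5.73 to 5.83, and precision is limited by the number of arrays. Pearson's r across genes, which are not independent replicates, was 0.996 to 0.998 within groups and 0.988 to 0.995 between groups. Replicate 3 of scramble siRNA with UV-PAPC stood apart: it was the lowest of its group in 35 of the 41 genes (85.4%), against 44.7% of all genes. Replicate 2 of OLR1 siRNA with UV-PAPC was the lowest of its group in 32 of the 41 (78%), against 39.2% of all genes. The call counts of the 41 genes are therefore also given without the first of these arrays, as are several pathway genes whose call changed without it. For the second array, the calls of the 41 genes that changed with UV-PAPC under OLR1 siRNA are given. Both arrays were singled out for low values in these same genes, so leaving either out raises its group's mean in most of them. Rises with UV-PAPC gained in this way follow partly from that choice. So do falls with OLR1 siRNA in UV-PAPC cells gained without the first array. They are no further support, and no matching share of all genes is given for these counts. OLR1, the siRNA target, lay between 4.33 and 4.66 in the 6 OLR1 siRNA arrays, against 5.35 to 6.19 in the 6 scramble arrays. It was lower by −1.40 (SE 0.18, limma adjusted p = 0.000162) in UV-PAPC cells and by −1.19 (SE 0.18, limma adjusted p = 0.000484) in untreated cells. Of 19 sebocyte and epithelial markers, 14 lay above the median of all genes (6.35), KRT7 and EPCAM among them, and the median of the list was 8.004 to 8.316 in the 4 groups. The sebocyte markers MC5R (4.20) and AWAT2 (4.03) were dim, and AWAT1 (5.11), KRT79 (5.69) and KRT14 (6.25) also lay below that median of all genes. Above that median were also 1 of 8 fibroblast markers (COL1A1), 1 of 5 leukocyte markers (CD68), 1 of 4 endothelial markers (CDH5) and 1 of 4 melanocyte markers (MITF), with list medians of 4.25 to 5.15 over groups. PTPRC (3.26), LUM (3.16) and MLANA (3.43) were dim. Of the 19 sebocyte and epithelial genes, 4 passed in either direction with UV-PAPC under OLR1 siRNA, beside 3.46% of all genes that rose and 3.25% that fell. Under scramble siRNA 5 of the 19 passed, beside 2.67% that rose and 4.64% that fell. Of the other lists 1 melanocyte marker passed with UV-PAPC under scramble siRNA, and 1 leukocyte, 1 endothelial and 1 melanocyte marker in each siRNA comparison. Among all genes 7.94% rose and 4.56% fell with OLR1 siRNA in UV-PAPC cells, and 5.29% and 4.42% in untreated cells. The part of these markers in the results was not tested. Probes differ in brightness, so levels of different genes compare only roughly.

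With UV-PAPC under scramble siRNA, 8 of the 41 genes rose and 0 fell (limma, Benjamini-Hochberg adjusted p threshold 0.05 over 18417 genes). That is 19.5% of the genes, beside 2.67% of all genes that rose and 4.64% that fell. At an unadjusted p under 0.05, 11 were higher and 0 lower, which is 26.8% of the 41 beside 19.5% of all genes in either direction. The 8 were the stress transcription factor DDIT3, the feedback and stress effectors CHAC1, SESN2, PPP1R15A and DDIT4, the amino acid carriers SLC3A2 and SLC38A2, and the mitochondrial one-carbon enzyme MTHFD2. The median log2 fold change of the 41 was 0.0619, against −0.00196 for all genes. Without replicate 3 of scramble siRNA with UV-PAPC, 9 rose, with TRIB3 as the added gene (0.31, adjusted p = 0.0271), and 0 fell. That array was singled out for low values in these genes, so the added rise is no further support. The tRNA synthetases, the other serine enzymes and the proline enzymes of the list gave no call.

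Among the transcription factors, DDIT3 encodes CHOP, which promotes cell death under lasting stress. Its log2 signals were 6.45, 6.46 and 6.28 with UV-PAPC and 5.81, 5.60 and 5.73 in untreated cells, all with scramble siRNA. All 3 UV-PAPC arrays lay above all 3 untreated ones. The log2 fold change was 0.68 (SE 0.11, 1.60-fold, adjusted p = 0.000829). ATF4 itself had log2 signals of 10.21, 10.24 and 10.10 with UV-PAPC and 10.03, 10.08 and 10.06 in untreated cells. These groups did not overlap, yet the difference of 0.13 (95% CI −0.01 to 0.27) did not pass (adjusted p = 0.313). A second ATF4 probe set gave −0.17, so the direction of the ATF4 mRNA depended on the probe set. TRIB3, a pseudokinase that restrains ATF4 and AKT, was at 7.62, 7.63 and 7.33 with UV-PAPC and 7.27, 7.28 and 7.40 in untreated cells. Those groups overlapped through replicate 3 of UV-PAPC, and the difference of 0.21 did not pass (adjusted p = 0.164). The 6 remaining factors, ATF3, ATF5, CEBPB, CEBPG, JDP2 and NUPR1, lay between −0.17 and 0.13 and did not pass.

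The feedback and stress effectors gave 4 rises among 7 measured genes (57.1%, beside 2.67% of all genes) and 0 falls (beside 4.64%). CHAC1 degrades glutathione. It was at 8.23, 8.12 and 7.83 with UV-PAPC and 7.54, 7.44 and 7.46 in untreated cells, without overlap, and rose by 0.58 (SE 0.12, adjusted p = 0.00651). SESN2 encodes sestrin 2, which restrains the growth kinase mTORC1 when leucine is short. It was at 7.67, 7.71 and 7.38 with UV-PAPC and 6.91, 7.13 and 7.17 in untreated cells, again without overlap. It rose by 0.52 (SE 0.09, adjusted p = 0.00149). DDIT4, also an inhibitor of mTORC1 signalling, was at 8.44, 8.51 and 8.25 with UV-PAPC and 8.01, 7.85 and 7.92 in untreated cells. The groups were apart by 0.47 (SE 0.09, adjusted p = 0.00333). PPP1R15A encodes GADD34, which directs the phosphatase that resets eIF2alpha. It was at 8.71, 8.67 and 8.36 with UV-PAPC and 8.15, 8.03 and 8.13 in untreated cells. All UV-PAPC arrays were higher, replicate 3 least so, and the rise was 0.48 (SE 0.09, adjusted p = 0.00228). STC2, a secreted glycoprotein, reached 0.19 (adjusted p = 0.174), EIF4EBP1, a repressor of cap-dependent translation, 0.13, and VLDLR, a lipoprotein receptor, −0.05, and none of these 3 passed.

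Of the 6 amino acid transporters 2 rose (33.3%, beside 2.67% of all genes). SLC3A2 is the heavy chain shared by several exchangers, among them the cystine carrier. It was at 11.19, 11.20 and 10.96 with UV-PAPC and 10.69, 10.69 and 10.77 in untreated cells, apart by 0.40 (SE 0.08, adjusted p = 0.00515). SLC38A2 carries small neutral amino acids into the cell. It was at 11.33, 11.28 and 10.99 with UV-PAPC and 10.88, 10.83 and 10.83 in untreated cells, without overlap, and rose by 0.36 (SE 0.08, adjusted p = 0.0135). Without UV-PAPC replicate 1 or 2 the adjusted p of SLC38A2 was 0.0752 or 0.06, and without replicate 3 it was 0.00121. The glutamine carrier SLC1A5 gave 0.20 (adjusted p = 0.142), the leucine exchanger SLC7A5 0.08, the arginine carrier SLC7A1 0.00 and the serine carrier SLC1A4 −0.08, and these 4 did not pass.

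Amino acid and one-carbon enzymes gave 1 rise among 9 measured genes. It is 20% of the 5 serine and one-carbon genes and 0% of the 4 others, beside 2.67% of all genes that rose. MTHFD2, of mitochondrial folate metabolism, was at 9.75, 9.71 and 9.58 with UV-PAPC and 9.45, 9.47 and 9.44 in untreated cells. The groups were apart by 0.23 (SE 0.07), with an adjusted p of 0.0499 that lies at the threshold. Its call was lost in 15 of 22 alternatives, with adjusted p up to 0.181 when UV-PAPC replicate 1 was left out. The serine synthesis genes PHGDH, PSAT1 and PSPH and the serine hydroxymethyltransferase SHMT2 lay between −0.09 and 0.15. Asparagine synthetase, ASNS, a much used marker of ATF4 activity, gave 0.17 (95% CI −0.02 to 0.36, adjusted p = 0.332). ALDH18A1 and PYCR1, of proline synthesis, and the mitochondrial PEP carboxykinase PCK2 gave −0.22, 0.06 and 0.03. The 10 tRNA synthetases, which charge tRNAs with their amino acids, lay between −0.14 (WARS1) and 0.12 (CARS1), with 0 past the threshold and 0 at an unadjusted p under 0.05 in limma.

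**Figure D1:**
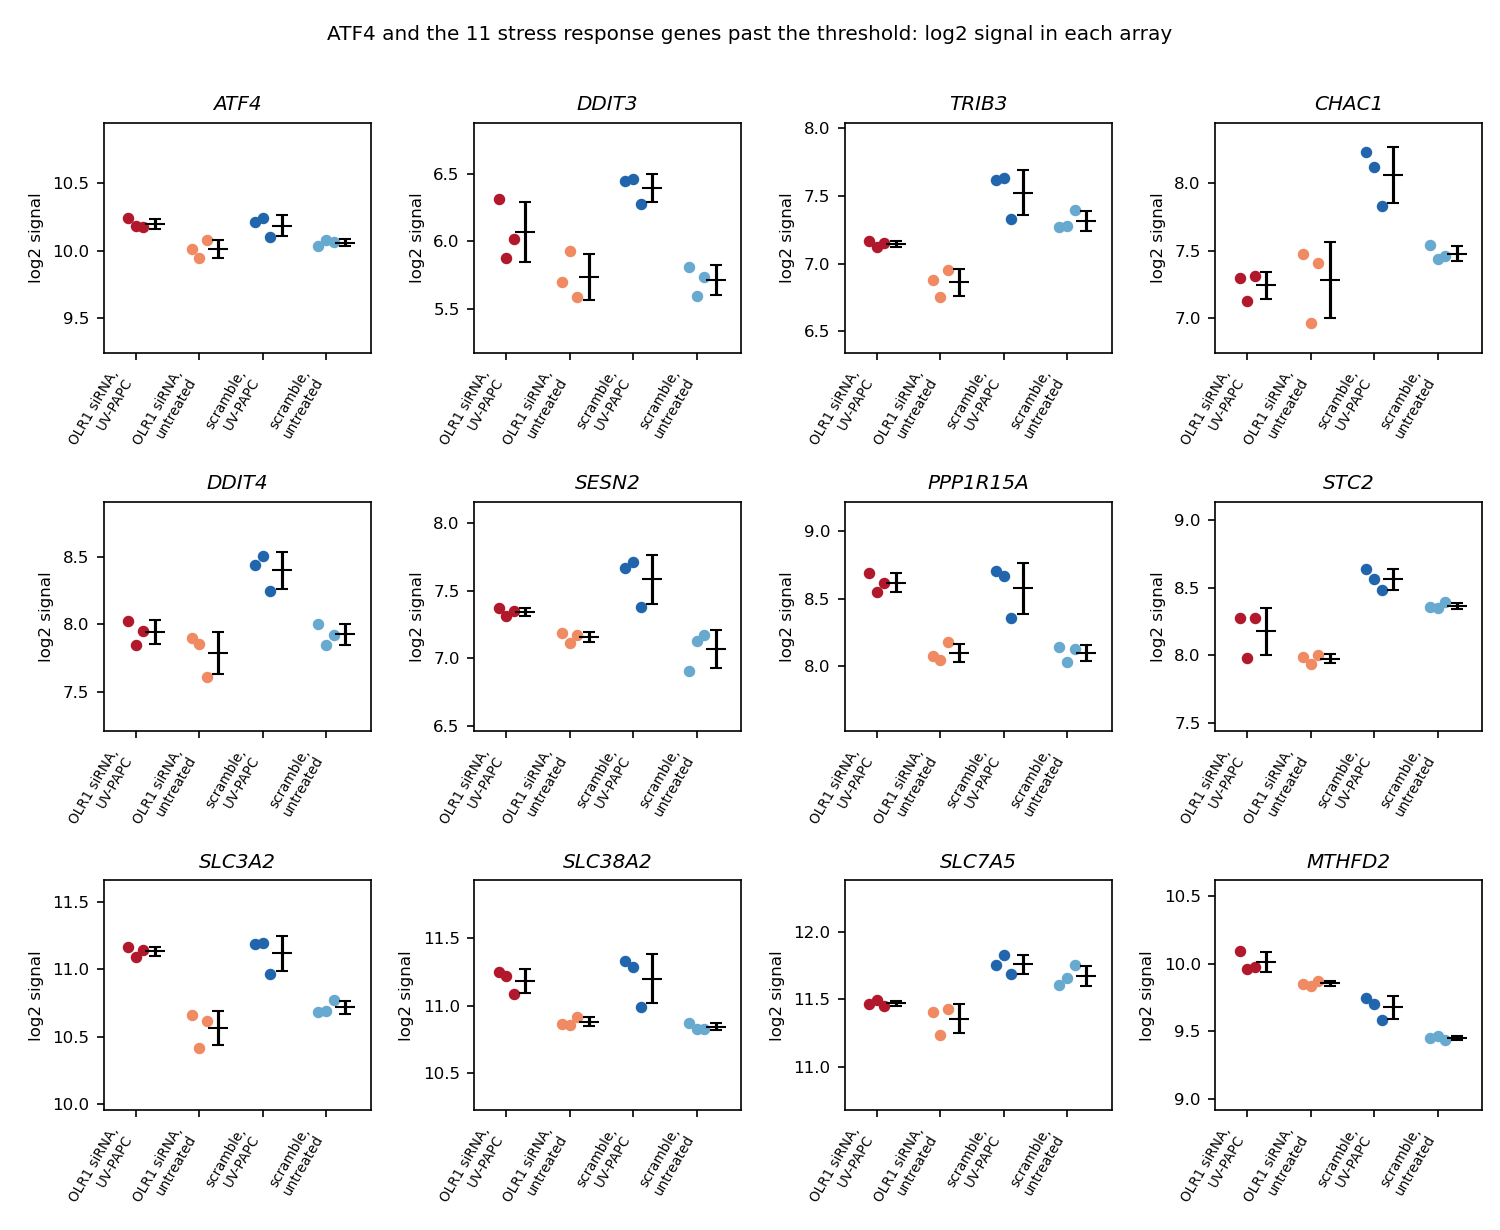
Log2 signal (y axis, a span of the same size in each panel) of ATF4 and the 11 genes past the threshold in any comparison, by group (x axis); points are single arrays, and black bars give the mean ± SD of 3 arrays. CHAC1 and DDIT4 are highest in the 3 arrays of scramble siRNA with UV-PAPC, PPP1R15A and SLC3A2 in all 6 UV-PAPC arrays, and MTHFD2 lies higher in the 6 OLR1 siRNA arrays than in the 6 scramble arrays.

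With UV-PAPC under OLR1 siRNA, 3 of the 41 genes rose and 0 fell (limma, adjusted p threshold 0.05), and these were PPP1R15A, SLC3A2 and SLC38A2. That is 7.32% of the genes, beside 3.46% of all genes that rose and 3.25% that fell. At an unadjusted p under 0.05, 10 were higher and 0 lower. That is 24.4% of the 41 beside 18.5% of all genes, near the background when both are counted in either direction. The 18.5% holds rises and falls of all genes, so it is no background for rises alone. The median log2 fold change of the 41 was 0.0255, against −0.0134 for all genes. Without replicate 3 of scramble siRNA with UV-PAPC, which enters only through the shared spread, 4 rose, with TRIB3 added (0.29, adjusted p = 0.0168). Without replicate 2 of OLR1 siRNA with UV-PAPC, DDIT3 and STC2 passed and SLC38A2 did not. This array too was singled out for low values in these genes. There were 6 rises with trend and robust eBayes or among the genes above the median signal, and 5 with array weights. The share of all genes that rose under these settings is not given here, so these counts have no background beside them.

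SLC3A2 was at 11.16, 11.09 and 11.14 with UV-PAPC and 10.66, 10.42 and 10.62 in untreated cells, all with OLR1 siRNA. The groups lay far apart, by 0.57 (SE 0.08, adjusted p = 0.000288). PPP1R15A was at 8.69, 8.55 and 8.62 with UV-PAPC and 8.08, 8.05 and 8.18 in untreated cells, also without overlap. It rose by 0.52 (SE 0.09, adjusted p = 0.00116). SLC38A2 was at 11.25, 11.22 and 11.08 with UV-PAPC and 10.87, 10.86 and 10.92 in untreated cells. It rose by 0.30 (SE 0.08, adjusted p = 0.0379). The SLC38A2 call was lost in 10 of 22 alternatives, with adjusted p up to 0.137 when UV-PAPC replicate 1 was left out, and it was 0.108 without replicate 2. These 3 genes passed under both siRNAs.

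Several genes lay close to the threshold. TRIB3 was at 7.17, 7.12 and 7.15 with UV-PAPC and 6.88, 6.75 and 6.95 in untreated cells, with no overlap, and its log2 fold change of 0.29 had an adjusted p of 0.0528. SLC1A5 gave 0.26 (adjusted p = 0.0532). DDIT3 was at 6.31, 5.88 and 6.02 with UV-PAPC and 5.70, 5.93 and 5.59 in untreated cells. Replicate 2 of both groups made them overlap, and its 0.33 (95% CI 0.10 to 0.56) did not pass (adjusted p = 0.0853). ATF4 was at 10.24, 10.18 and 10.17 with UV-PAPC and 10.01, 9.95 and 10.08 in untreated cells. It was higher in all 3 UV-PAPC arrays, by 0.19 (adjusted p = 0.114), and the second probe set gave 0.15.

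The effectors other than PPP1R15A did not pass. CHAC1 was at 7.29, 7.13 and 7.31 with UV-PAPC and 7.48, 6.96 and 7.41 in untreated cells. The groups overlapped, and the difference was −0.04 (95% CI −0.29 to 0.22, adjusted p = 0.916). SESN2 was at 7.37, 7.31 and 7.35 with UV-PAPC and 7.19, 7.11 and 7.18 in untreated cells. These did not overlap, yet 0.19 did not pass (adjusted p = 0.278). DDIT4 was at 8.02, 7.85 and 7.95 with UV-PAPC and 7.90, 7.86 and 7.61 in untreated cells, and its 0.15 did not pass (adjusted p = 0.407). STC2 gave 0.20 (adjusted p = 0.172) and MTHFD2 0.16 (adjusted p = 0.201), while ASNS gave 0.18 (adjusted p = 0.307). The 10 tRNA synthetases lay between −0.07 (GARS1) and 0.09 (IARS1), with 0 at an unadjusted p under 0.05.

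**Figure D2:**
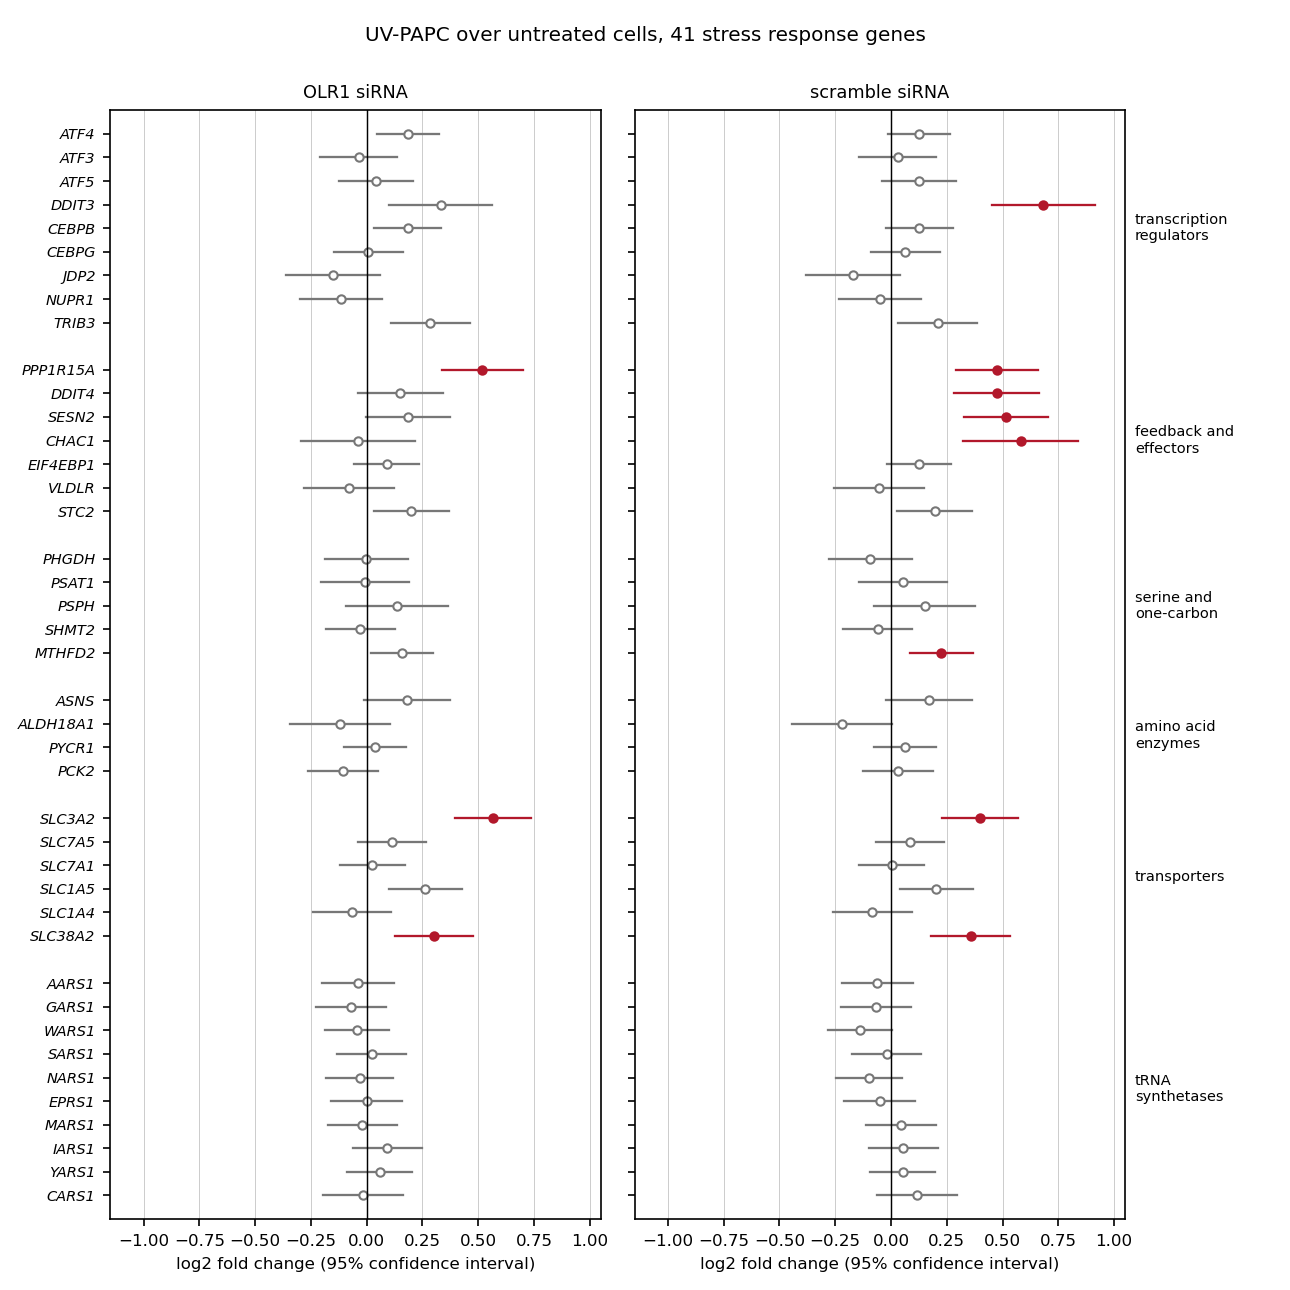
Log2 fold change of UV-PAPC over untreated cells (x axis) for the 41 genes by role (rows), with OLR1 siRNA (left) and scramble siRNA (right); lines are 95% confidence intervals of the limma fit, and filled red points passed the adjusted threshold. PPP1R15A, SLC3A2 and SLC38A2 passed on both sides, and the tRNA synthetases lie near 0.

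OLR1 siRNA against scramble siRNA in untreated cells left 37 of the 41 genes without a call. MTHFD2 rose, and TRIB3, STC2 and SLC7A5 fell (limma, adjusted p threshold 0.05). The rise is 2.44% of the genes, beside 5.29% of all genes, and the 3 falls are 7.32%, beside 4.42% of all genes. Both shares are near the background. The median log2 fold change of the 41 was −0.00772, against −0.00142 for all genes. Counts without replicate 3 of scramble siRNA with UV-PAPC were the same, at 1 and 3.

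In untreated cells TRIB3 was at 6.88, 6.75 and 6.95 with OLR1 siRNA and 7.27, 7.28 and 7.40 with scramble siRNA. All OLR1 siRNA arrays were lower, by −0.45 (SE 0.08, adjusted p = 0.00231). STC2 was at 7.99, 7.94 and 7.998 with OLR1 siRNA and 8.36, 8.35 and 8.39 with scramble siRNA. Both groups were tight and did not overlap, a difference of −0.39 (SE 0.08, adjusted p = 0.00473). SLC7A5, the light chain that pairs with SLC3A2 for leucine exchange, was at 11.40, 11.23 and 11.43 with OLR1 siRNA and 11.61, 11.66 and 11.76 with scramble siRNA. It fell by 0.32 on the log2 scale (SE 0.07, adjusted p = 0.00966), and without OLR1 siRNA replicate 2 or scramble replicate 3 the adjusted p was 0.0611 or 0.0528. MTHFD2 was at 9.85, 9.84 and 9.88 with OLR1 siRNA and 9.45, 9.47 and 9.44 with scramble siRNA. It was higher in every OLR1 siRNA array, by 0.40 (SE 0.07, adjusted p = 0.000971), and its second probe set gave 0.46. ATF4 gave −0.05 from one probe set and −0.20 from the other, and DDIT3 0.02 (adjusted p = 0.932). WARS1, a tRNA synthetase, gave −0.21 and did not pass (adjusted p = 0.0639).

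In UV-PAPC cells, OLR1 siRNA against scramble siRNA gave 1 rise and 5 falls among the 41 genes. MTHFD2 rose, and CHAC1, DDIT4, STC2, TRIB3 and SLC7A5 fell (limma, adjusted p threshold 0.05). The rise is 2.44% of the genes, beside 7.94% of all genes, and the 5 falls are 12.2%, beside 4.56% of all genes. Without replicate 3 of scramble siRNA with UV-PAPC there were 1 rise and 6 falls, with SESN2 added (−0.34, adjusted p = 0.0189). That array was singled out for low values in these genes, so the added fall is no further support. The arrays of scramble siRNA with UV-PAPC also enter the UV-PAPC comparison under scramble siRNA, so a value that is high in these arrays counts in both. The same holds for each of the other 3 groups, which all enter a UV-PAPC and an siRNA comparison.

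CHAC1 had the lowest fold change of the 41. It was at 7.29, 7.13 and 7.31 with OLR1 siRNA and 8.23, 8.12 and 7.83 with scramble siRNA, both with UV-PAPC. The groups lay well apart, by −0.81 (SE 0.12, 95% CI −1.07 to −0.56, adjusted p = 0.00054), which is 1.76-fold lower with OLR1 siRNA. DDIT4 was at 8.02, 7.85 and 7.95 with OLR1 siRNA and 8.44, 8.51 and 8.25 with scramble siRNA. It was lower in all OLR1 siRNA arrays, by −0.46 (SE 0.09, adjusted p = 0.00385). In untreated cells the same siRNA comparison gave −0.19 for CHAC1 (adjusted p = 0.373) and −0.14 for DDIT4 (adjusted p = 0.41), which did not pass.

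The genes that fell in untreated cells also fell here. STC2 was at 8.27, 7.98 and 8.27 with OLR1 siRNA and 8.64, 8.57 and 8.48 with scramble siRNA, a difference of −0.39 (SE 0.08, adjusted p = 0.00526). TRIB3 was at 7.17, 7.12 and 7.15 with OLR1 siRNA and 7.62, 7.63 and 7.33 with scramble siRNA, a difference of −0.38 (SE 0.08, adjusted p = 0.00809). Neither gene's groups overlapped. SLC7A5 was at 11.46, 11.49 and 11.45 with OLR1 siRNA and 11.76, 11.83 and 11.69 with scramble siRNA. It fell by 0.29 on the log2 scale (SE 0.07, adjusted p = 0.015), and without OLR1 siRNA replicate 1 or scramble replicate 2 the adjusted p was 0.0504 or 0.0525. MTHFD2 was at 10.10, 9.96 and 9.98 with OLR1 siRNA and 9.75, 9.71 and 9.58 with scramble siRNA. It was higher by 0.33 (SE 0.07, adjusted p = 0.00407), and its second probe set gave 0.34. DDIT3 (−0.33, adjusted p = 0.0614) and SESN2 (−0.24, adjusted p = 0.0871) did not pass, and PPP1R15A gave 0.04, SLC3A2 0.01 and ATF4 0.01.

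**Figure D3:**
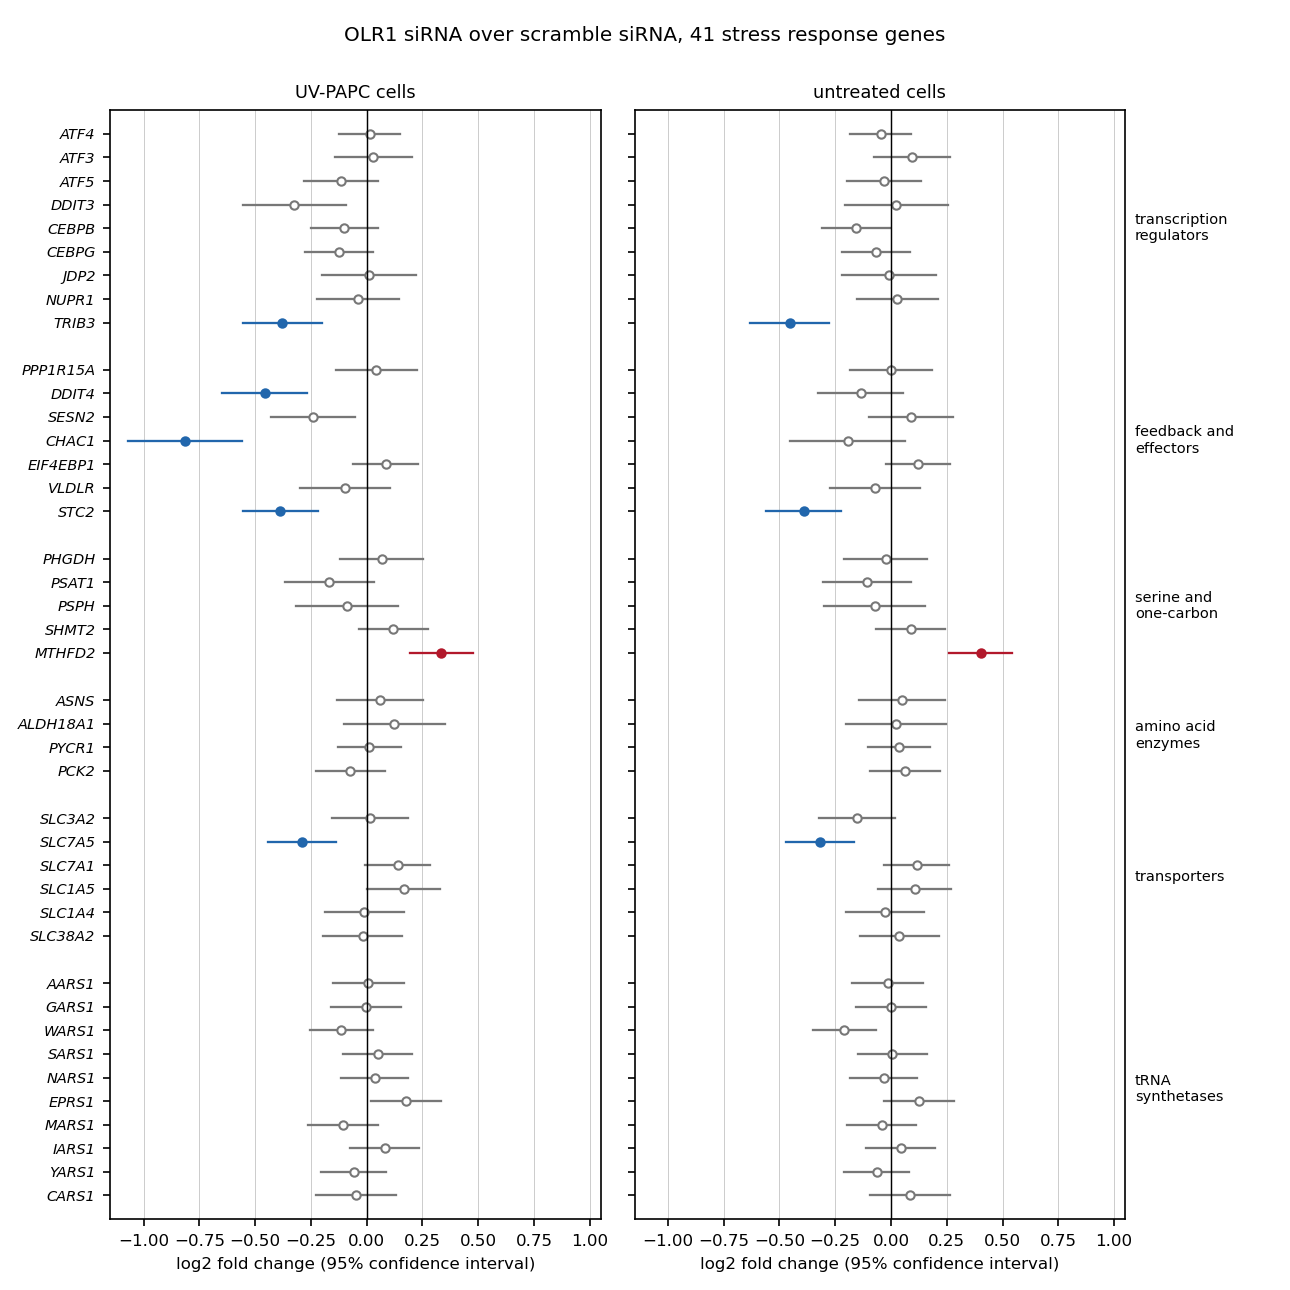
Log2 fold change of OLR1 siRNA over scramble siRNA (x axis) for the 41 genes by role (rows), in UV-PAPC cells (left) and untreated cells (right); lines are 95% confidence intervals of the limma fit, filled red points rose and filled blue points fell past the adjusted threshold. CHAC1 has the lowest value, −0.81, in UV-PAPC cells, and TRIB3, STC2, SLC7A5 and MTHFD2 passed in both panels.

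Whether the UV-PAPC response itself differed between the siRNAs was tested as the response under OLR1 siRNA minus that under scramble siRNA. None of the 41 genes passed, nor did any gene of the array (0% of 18417 genes called by limma). The lowest adjusted p among all genes was 0.52. At an unadjusted p under 0.05 there were 4 of the 41 genes, beside 5.45% of all genes. Those 4 were CHAC1 (−0.62, 95% CI −0.98 to −0.26, unadjusted p = 0.00231, adjusted p = 0.86), SESN2 (−0.33, 95% CI −0.60 to −0.06), DDIT4 (−0.32, 95% CI −0.59 to −0.05) and DDIT3 (−0.35, 95% CI −0.68 to −0.02). SESN2, DDIT4 and DDIT3 each had an adjusted p of 0.904. Their intervals lie below 0 before adjustment, and a smaller response under OLR1 siRNA was not shown for them. For PPP1R15A the difference was 0.04 (95% CI −0.22 to 0.30), for SLC3A2 0.17 (95% CI −0.07 to 0.41) and for SLC38A2 −0.06 (95% CI −0.30 to 0.19). For ATF4 it was 0.06 (95% CI −0.14 to 0.26), and the second ATF4 probe set gave 0.32. The median over the 41 genes was 0.00745, against 0.00537 for all genes. Without replicate 3 of scramble siRNA with UV-PAPC, CHAC1 gave −0.73 (adjusted p = 0.957). The passing of DDIT3, DDIT4, SESN2, CHAC1 and MTHFD2 under scramble siRNA alone is therefore not shown to be a difference between the siRNAs.

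**Figure D4:**
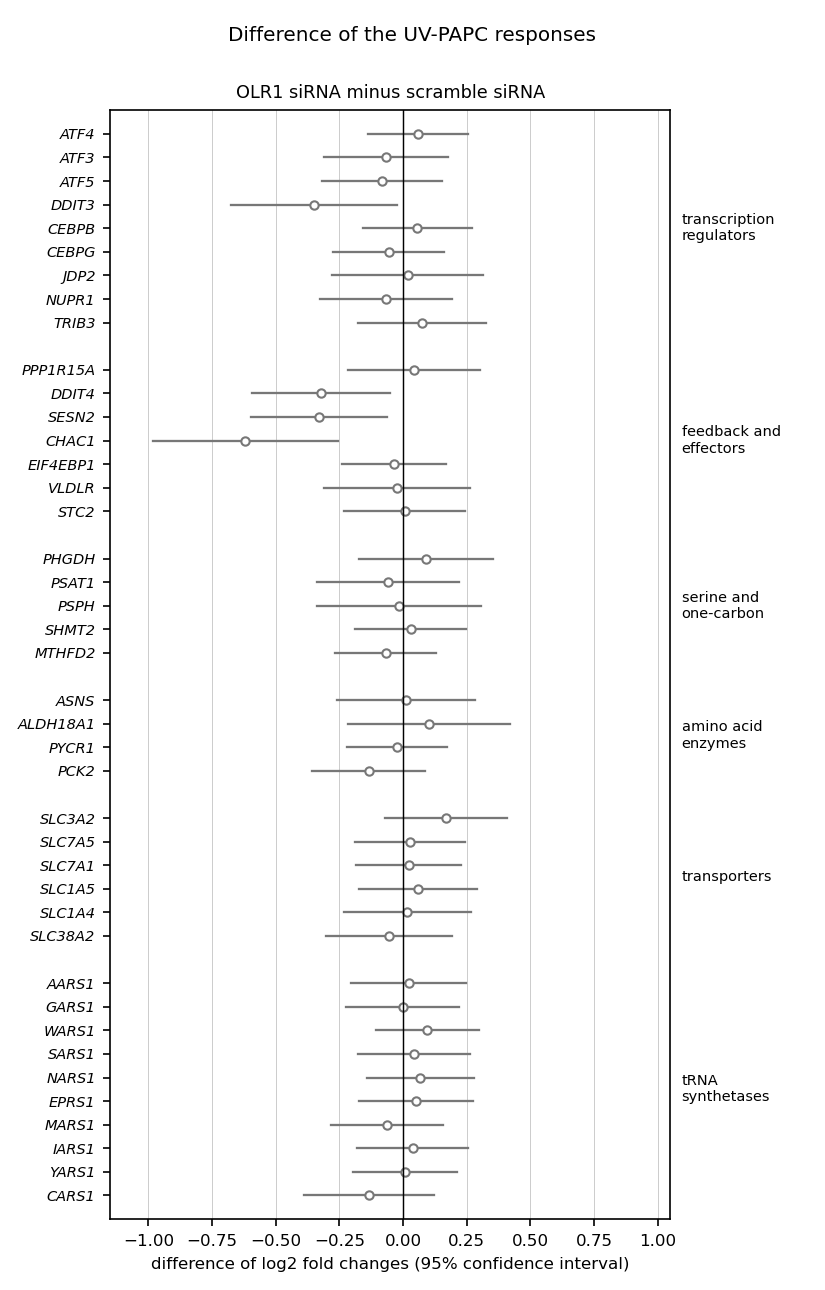
Difference of the log2 fold changes for UV-PAPC, OLR1 siRNA minus scramble siRNA (x axis), for the 41 genes by role (rows); lines are 95% confidence intervals of the limma fit, unadjusted. The intervals of CHAC1, SESN2, DDIT4 and DDIT3 lie below 0, and no gene passed after adjustment.

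Other genes of the pathway were taken from lists by role. These lists were chosen with earlier results of these data known, so their shares are not those of lists drawn blind to the data. Among 23 measured further ATF4 targets, 8 rose and 2 fell with UV-PAPC under OLR1 siRNA, and 6 rose and 0 fell under scramble siRNA. The rises are 34.8% of the list under OLR1 siRNA, beside 3.46% of all genes, and 26.1% under scramble siRNA, beside 2.67%. The falls under OLR1 siRNA are 8.7%, beside 3.25% of all genes. SLC7A11, the cystine carrier that pairs with SLC3A2, rose by 2.58 with OLR1 siRNA (adjusted p = 1.68e-11) and 2.20 with scramble siRNA (adjusted p = 1.45e-10). The autophagy receptor SQSTM1 rose by 0.75 and 0.57, the endoplasmic reticulum stress gene HERPUD1 by 0.55 and 0.86, the cysteine-forming enzyme CTH by 0.47 and 0.70, and the death gene PMAIP1 by 0.49 and 0.39, with OLR1 siRNA and scramble siRNA in that order. The remaining rises were less stable. Under OLR1 siRNA they were lost in 17, 8 and 7 of 22 alternatives, and under scramble siRNA in 4 of 21. The call of PMAIP1 under scramble siRNA was lost in 2 of 22. SLC7A11 and SQSTM1 are also known targets of NRF2, and HERPUD1 of ATF6. The 2 falls, named after their values were seen, were the glycine transporter SLC6A9 (−0.29) and the transcription factor NFIL3 (−0.33), and these calls were lost in 13 and 5 of 22 alternatives. OLR1 siRNA in UV-PAPC cells gave 2 rises and 1 fall among the 23, which is 8.7% and 4.35%, close to the 7.94% and 4.56% of all genes. HERPUD1 was lower (−0.59, adjusted p = 0.000188), and CLDND1 (0.35) and the focal adhesion gene TES (0.34) were higher. In untreated cells it gave 3 rises (13%, beside 5.29% of all genes) and 2 falls (8.7%, beside 4.42%), with CTH (0.43), TES (0.32) and CLDND1 (0.21) higher and SLC7A11 (−0.57, adjusted p = 0.000467) and HERPUD1 (−0.28) lower. TES was also named after its values were seen. In untreated cells the calls of CLDND1 and HERPUD1 were lost in 13 and 9 of 22 alternatives. Without replicate 3 of scramble siRNA with UV-PAPC the counts of this list were the same in all 4 comparisons.

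Upstream of ATF4, 10 eIF2alpha kinases and their regulators were measured, activators and inhibitors together, so shares of this list carry no direction of signalling. With UV-PAPC, EIF2AK2, the double-stranded RNA sensor PKR, rose under OLR1 siRNA (0.28, adjusted p = 0.0264). IMPACT, an inhibitor of the amino acid sensor GCN2, fell under scramble siRNA (−0.32, adjusted p = 0.0297). Each is 10% of the list, beside 3.46% of all genes that rose under OLR1 siRNA and 4.64% that fell under scramble siRNA. The EIF2AK2 call was lost in 6 of 22 alternatives. EIF2AK3, the endoplasmic reticulum kinase PERK, was lower with OLR1 siRNA in UV-PAPC cells (−0.28, adjusted p = 0.021) and in untreated cells (−0.25, adjusted p = 0.0499). These calls were lost in 5 and 16 of 22 alternatives in that order. The mitochondrial stress protease OMA1 was higher with OLR1 siRNA in UV-PAPC cells (0.39, adjusted p = 0.00222) and in untreated cells (0.45, adjusted p = 0.000695). In UV-PAPC cells the haem-regulated kinase EIF2AK1 (0.26) and the PKR activator PRKRA (0.25) were higher with OLR1 siRNA too. The list thus gave 3 rises (30%, beside 7.94% of all genes) and 1 fall (10%, beside 4.56%) in UV-PAPC cells. In untreated cells it gave 1 rise (10%, beside 5.29%) and 1 fall (10%, beside 4.42%). Of 10 eIF2 and eIF2B subunits only EIF2B1 passed, and of 4 further eIF2alpha phosphatase subunits only PPP1CC, both with OLR1 siRNA in UV-PAPC cells (0.24 and 0.32). These are 10% and 25% of short lists, beside 7.94% of all genes that rose there. Several of these calls were sensitive to single arrays. Without replicate 3 of scramble siRNA with UV-PAPC, IMPACT (adjusted p = 0.093), EIF2AK1 (0.109), PRKRA (0.178), EIF2B1 (0.0966) and PPP1CC (0.0614) did not pass in the comparisons named. Each of these calls was also lost without another array, and they were lost in 5, 7, 12, 7 and 3 of 22 alternatives in that order. Without that replicate 3, EIF2AK3 passed with UV-PAPC under scramble siRNA (0.29, adjusted p = 0.0321).

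Of 14 other bZIP partners and C/EBP factors, 2 rose and 2 fell with UV-PAPC under OLR1 siRNA, and 1 rose and 3 fell under scramble siRNA. Under OLR1 siRNA these are 14.3% each way, beside 3.46% of all genes that rose and 3.25% that fell. Under scramble siRNA they are 7.14% and 21.4%, beside 2.67% and 4.64%. MAFG, a small MAF protein that pairs with NRF2, rose by 0.74 with OLR1 siRNA (adjusted p = 5.42e-06) and by 0.60 with scramble siRNA (adjusted p = 4.52e-05). The AP-1 subunits JUNB (−0.64 and −0.75) and FOSL1 (−0.34 and −0.31) fell under OLR1 and scramble siRNA. JUN rose under OLR1 siRNA (0.53, adjusted p = 0.000165), and in untreated cells it was lower with OLR1 siRNA than with scramble siRNA (−0.26, adjusted p = 0.0253). The untreated OLR1 siRNA arrays enter both of these comparisons. The call of JUN in untreated cells was lost in 6 of 22 alternatives. CREB1 fell under scramble siRNA (−0.32, adjusted p = 0.0266). Its call was lost in 7 of 22 alternatives, among them without replicate 3 of scramble siRNA with UV-PAPC (adjusted p = 0.118). NFE2L2, which encodes NRF2, was higher with OLR1 siRNA in UV-PAPC cells (0.28) and in untreated cells (0.26). Its call in untreated cells was lost in 4 of 22 alternatives. No difference of UV-PAPC responses between the siRNAs passed for any gene of these lists.

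Further genes of tRNA charging gave no call. Of 9 other cytosolic and 16 mitochondrial tRNA synthetases, 0 passed in limma in any comparison. At an unadjusted p under 0.05 there were 4 mitochondrial ones with UV-PAPC under OLR1 siRNA, and 5 mitochondrial and 1 cytosolic under scramble siRNA. For the mitochondrial genes these are 25% and 31.2%, beside 18.5% and 19.5% of all genes. Of 8 other one-carbon and glycine enzymes, MTHFD1, the cytosolic counterpart of MTHFD2, fell with UV-PAPC under scramble siRNA (−0.30, adjusted p = 0.019). This call was lost in 4 of 22 alternatives, among them without replicate 3 of UV-PAPC (adjusted p = 0.0828). With OLR1 siRNA, MTHFD1 was higher in UV-PAPC cells (0.37, adjusted p = 0.00424) and in untreated cells (0.26, adjusted p = 0.0374). The latter call was lost in 6 of 22 alternatives. The thymidylate synthase TYMS was also higher with OLR1 siRNA, by 0.45 in UV-PAPC cells (adjusted p = 0.000309) and by 0.43 in untreated cells (adjusted p = 0.000353). The rises are 25% of the 8 genes in each siRNA comparison, beside 7.94% of all genes in UV-PAPC cells and 5.29% in untreated cells. The fall with UV-PAPC is 12.5%, beside 4.64% of all genes.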

How the data were processed

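Per the submitters' processing notes, the authors used RMA and Affymetrix Expression Console (version 1.3.1.187) to make log2 signals per probe set. The deposited log2 values were analysed without further scaling. Per the labels, 100 ng of RNA were labelled for each array. The sources used here do not give the RMA settings, and RMA compresses large fold changes. The platform annotation, which can be old, paired 19460 of 33297 entries with 1 gene symbol, 1754 with several and 12083 with none. Keeping the highest-mean probe set per gene (769 genes had several) left 18417 genes.

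A linear model with a mean for each of the 4 groups was fitted across the 12 arrays in limma (version 3.58.1, R version 4.3.3; residual degrees of freedom 8, prior 7.66; default eBayes, two-sided, Benjamini-Hochberg adjustment within each of 5 comparisons over all genes, threshold 0.05). The fit was tested on simulated data. Array values were named for ATF4 and for every listed gene past the threshold in any comparison; of the pathway lists, at most 6 genes past it were named per list, by lowest p, except SLC6A9, NFIL3 and TES, which were added after their values were seen. The genes, lists and tests were chosen with earlier results of these data known. Alternatives were array weights, trend and robust eBayes, a filter on low signal, the mean of probe sets, all entries, 2 rescalings, the 6 arrays of a comparison alone, a replicate block and each array left out. Promoter sequences are from RefSeq (GRCh38.p14). Plots were made in Python 3.11.15 (matplotlib 3.10.9).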

Additional observations from a re-analysis of the deposited data

How the results depend on the processing

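For 27 fold changes (each of the 11 genes past the threshold where it passed, ATF4 in both UV-PAPC comparisons and 4 differences of responses) 588 alternatives were run. Of these, 554 kept direction and side of the threshold, 31 lost the call, 2 gained it (ATF4 with UV-PAPC under OLR1 siRNA, lowest adjusted p 0.0299) and 1 turned, ATF4 with UV-PAPC under scramble siRNA, at −0.0238 from the mean of its probe sets, which disagree. The 31 lost calls were of MTHFD2, SLC38A2 and SLC7A5. Of 184 results of the 41 genes that did not pass, 11 passed under at least 1 alternative: TRIB3, STC2 and ASNS with UV-PAPC under scramble siRNA; ATF4, DDIT3, TRIB3, STC2 and SLC1A5 with UV-PAPC under OLR1 siRNA; WARS1 for OLR1 siRNA in untreated cells; and DDIT3 and SESN2 for OLR1 siRNA in UV-PAPC cells. Of 50 calls of pathway genes, 24 were lost under at least 1 alternative; those of SLC7A11, SQSTM1, CTH, OMA1, MAFG, JUNB and TYMS were kept in all 22. With UV-PAPC under OLR1 siRNA, the 3 rises among the 41 genes became 6 with trend and robust eBayes, 5 with array weights and 6 among genes above the median signal. The share of all genes that rose under these settings is not given here, so a higher count is not shown to be a stronger response. Leaving out 4 arrays together, 1 per group and chosen after seeing the data for their score on the first component of deviations from group means (26.1% of the variance), gave 752 genes called with UV-PAPC under scramble siRNA (1347 with all arrays), 1161 for OLR1 siRNA in UV-PAPC cells (2302) and 1091 in untreated cells (1789), where fewer samples enter the fit. Leaving out 1 array at a time gave 868 to 1340, 1267 to 2254 and 1101 to 2055 in the same order. Same-numbered replicates did not deviate together (2 of 12 pairs had r over 0.1, from −0.221 to 0.113). No pairing by number was seen, which does not exclude one. With the replicate block, 7 genes of the 41 rose with UV-PAPC under scramble siRNA in place of 8. For the difference of responses a fit to 6 arrays is not possible. Dim genes such as VLDLR and NUPR1 have signals near those of marker genes of other cell types, which limits what can be seen of them.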
